A study of Mus musculus with 19 samples.

Results

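Ribosomal protein genes encode the proteins of the cytosolic ribosome and are transcribed in every growing cell, so they serve as a reference for active chromatin. A set of 46 of them, chosen by gene name, was examined out of 22365 protein-coding genes with a complete surrounding region: 29 encode large subunit or stalk proteins (Rpl and Rplp) and 17 encode small subunit proteins (Rps). Each gene was represented by its start tile, the 2 kb stretch of the mouse genome (NCBIM37) that holds its outermost annotated transcription start, and by its flanks, the 10 tiles within 10 kb on either side. The 46 start tiles were distinct and lay on 18 chromosomes; 9 of them also held the start of another protein-coding gene, so the signal of both genes is joined there.

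The study asked how repressive histone marks behave when DNA methylation is removed from embryonic stem cells. Mouse ESCs carrying a conditional Dnmt1 allele, labelled E14 but given in the methods as a Dnmt1 loxP/loxP line of strain C57BL/6, lost the maintenance DNA methyltransferase through tamoxifen-induced Cre recombination (DNMT1KO), in medium with serum and LIF (the methods mention culture with or without feeder cells), and the control libraries are labelled wildtype. Chromatin immunoprecipitation sequencing (ChIP-seq) of H3K27me3, H3K9me2 and H3K9me3 was available as 1 control and 1 KO library at day 4 and 2 of each at day 8, with 1 Input library of unprecipitated control chromatin, 19 libraries in all. The series text speaks of biological replicates, while the methods call the ChIP-seq data a single measurement in which significance was not assessed; p-values at day 8 measure only the spread between these libraries. The KO arm is a deletion in a culture, and the share of cells that kept an allele was not given in the sources used here.

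H3K27me3 is deposited by Polycomb repressive complex 2 and covers the CpG-rich starts of silent developmental genes. H3K9me2 is laid down mainly by G9a and GLP over broad domains, and H3K9me3 by SETDB1 and the SUV39H enzymes over repeats and heterochromatin. Transcribed promoters are generally poor in all of them, and most ribosomal protein genes start in CpG islands that lack DNA methylation.

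To show what such starts look like, the 120 bases just upstream of the transcription start, on NCBIM37, are given below for the 2 members with the lowest and the 2 with the highest H3K27me3 relative to Input. Members whose annotated starts fall in different tiles were not considered for printing. CpG sites, the targets of DNMT1, are in capitals, and all lines read 5′ to 3′ on the plus strand, which is the strand of all 4 genes.
Rps21, chr2:179991962-179992081: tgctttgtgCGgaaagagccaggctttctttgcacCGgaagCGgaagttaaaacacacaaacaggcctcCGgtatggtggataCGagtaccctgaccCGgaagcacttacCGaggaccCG
Rps9, chr7:3655475-3655594: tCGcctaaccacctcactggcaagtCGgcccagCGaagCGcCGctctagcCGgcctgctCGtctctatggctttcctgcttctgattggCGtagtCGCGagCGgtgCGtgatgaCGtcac
Rpl6, chr5:121654370-121654489: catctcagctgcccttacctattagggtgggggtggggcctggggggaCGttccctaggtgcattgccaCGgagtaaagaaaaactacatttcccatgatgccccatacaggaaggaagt
Rpl26, chr11:68714965-68715084: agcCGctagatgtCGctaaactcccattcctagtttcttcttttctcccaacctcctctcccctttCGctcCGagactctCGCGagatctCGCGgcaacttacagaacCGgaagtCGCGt
These stretches hold 8, 13, 2 and 11 CpG sites. All 46 members have at least 1 CpG site in the same window (2 to 20, median 8), as do 85.2% of all protein-coding genes (median 5). Across the whole start tile the members held 21 to 176 CpG sites with a median of 92, against 52 for all protein-coding genes. Of the 46 members, 31 (67.4%) had at least 80 CpG sites in the tile, against 30.7% of all protein-coding genes.

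The libraries held between 14627174 and 26181489 reads in tiles, apart from the H3K9me3 day 8 replicate 1 KO library with 5669098. The deposited unit is log2 of observed over expected reads per tile, so 0 is the genome average of a library. As a check of the H3K27me3 libraries, Hox genes, classical Polycomb targets, had a median start tile 4.75 above Input (log2), and 38 of 39 were called higher. Start tiles of 10 pluripotency genes had a median H3K27me3 difference from Input of -0.41 (range -2.07 to 2.60). Those of 8 fibroblast genes, silent in ESCs, had 2.84 (-0.35 to 4.80). Both lists were mixed: 4 pluripotency genes lay above Input in all 3 controls and 5 below, and 6 fibroblast genes above and 2 below. The H3K9me2 day 8 replicate 2 KO library stood apart: over the 6141 start tiles of protein-coding genes with at least 80 CpG sites it held 59.4% of the Input reads per library read, against 16.8% to 25.8% in the other 5 H3K9me2 libraries, and the members' counts and medians that use it are given with and without it.

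All 3 marks were scarcer than Input at ribosomal protein gene starts in control cells, H3K9me2 most of all. Summed over the 46 start tiles and scaled to library size, H3K9me2 reads amounted to 15.3% ± 2.82 of Input (SD, n = 3 libraries), H3K9me3 reads to 35.8% ± 3.73 and H3K27me3 reads to 44.2% ± 4.06. The corresponding values over the flanks were 34.8% ± 4.13, 50.1% ± 2.68 and 99.0% ± 7.98, so summed H3K27me3 was near the Input level over the flanks and below it at the starts themselves. The ranges of the starts and the flanks did not overlap for any of the marks.

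Behind these sums lie few reads per gene. Input had 5 to 24 reads in a member's start tile (median 13) and 613 in all. The control H3K27me3 libraries had 312 reads at day 4 and 328 and 299 at day 8. The control H3K9me3 libraries had 198, 241 and 203, and the control H3K9me2 libraries only 77, 86 and 91, with 9, 12 and 11 members at 0 reads. A 0 was deposited as 0.9 read, so differences of H3K9me2 from Input at such starts are limited by depth, and a tile at 0 allows up to 3 reads. Intervals below cover counting error only.

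**Figure D1:**
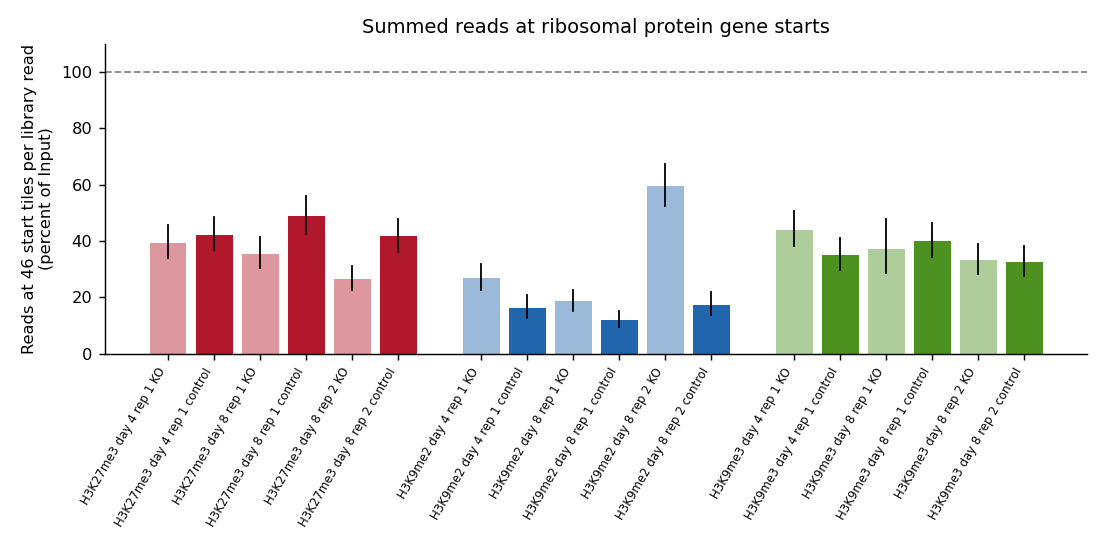
Reads at the 46 start tiles per library read, as a percent of the same value in Input (dashed line at 100), for each of the 18 ChIP libraries; dark bars are control, light bars Dnmt1 KO, and black lines are exact 95% binomial intervals. Control H3K9me2 libraries sit between 12.1% and 17.4%, and the day 8 replicate 2 KO library of that mark is at 59.5%.

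The starts of all protein-coding genes gave different values. Their summed control reads were 136% ± 17.8 of Input in the H3K27me3 libraries, 60.9% ± 3.05 in the H3K9me2 libraries and 199% ± 22.8 in the H3K9me3 libraries (SD, n = 3). Starts with at least 80 CpG sites (CpG-rich starts), closer to the members in CpG count (median 107 sites per tile) though not in GC content (56.7% against 52.9% for the members and 50.1% for all genes), had 433% ± 85.8, 19.03% ± 2.37 and 44.7% ± 4.37. The members' H3K9me2 range of 12.1% to 17.4% overlapped that of CpG-rich starts, 16.8% to 21.5%, whereas for H3K27me3 the members' 41.6% to 48.9% and the 372% to 531% of CpG-rich starts lay far apart. A sum gives most weight to tiles with many reads. Per gene, the median H3K27me3 difference from Input was -0.12 at CpG-rich starts (log2, quartiles -1.34 and 2.39) and -1.33 at the members. Over all protein-coding genes the median H3K9me3 difference was -0.89, below Input although the sum was above it. All 3 control libraries lay below Input at 66.5% of these genes for that mark. The 35 other ribosomal protein genes found in the annotation had 53.7% ± 6.38, 16.3% ± 1.60 and 33.8% ± 2.21, and 26 translation factor genes 49.9% ± 7.18, 15.6% ± 3.38 and 35.6% ± 4.05; both overlapped the members for every mark.

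The depletion had a shape that differed between the marks. Averaged over the members, H3K9me2 was lowest in the start tile at -3.47 (log2 observed over expected) and climbed to -2.02 in the tile 10 kb upstream and -1.76 in the tile 10 kb downstream. H3K9me3 went from -1.44 to -2.20 at the start and back to -1.29. H3K27me3 was lowest 1 tile into the gene, at -2.15, against -1.86 in the start tile itself, and stayed at -1.998 in the next tile before reaching -0.69 at 10 kb. Input moved only between -0.60 and -0.33 across the same tiles. Over all protein-coding genes H3K27me3 had no such trough, with -0.31 in the start tile and -0.62 at 10 kb upstream.

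**Figure D2:**
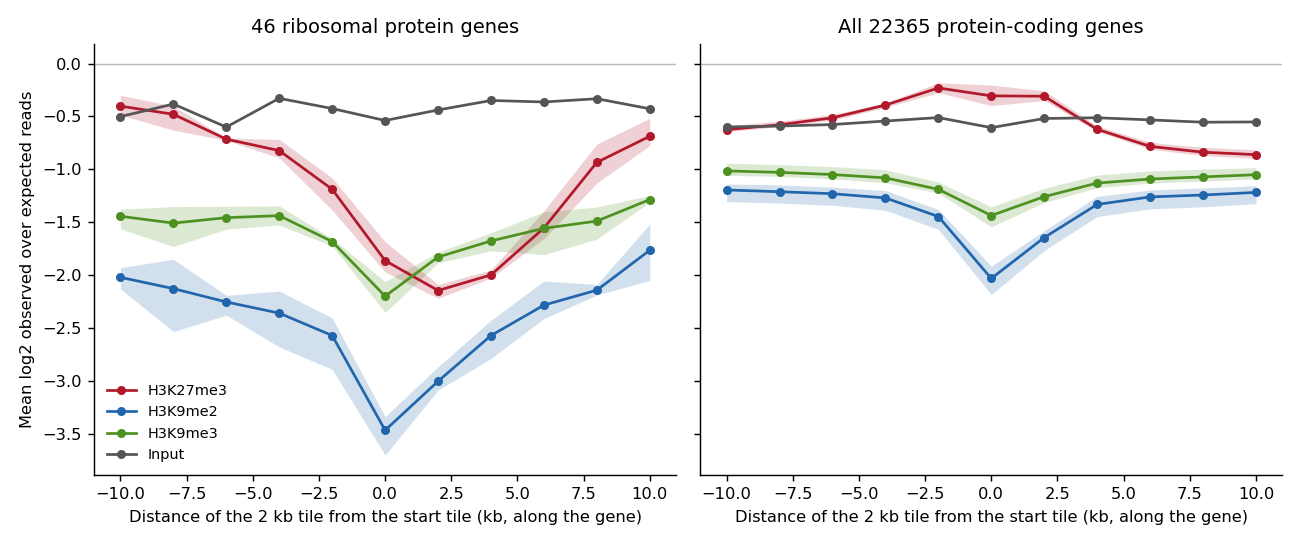
Mean log2 observed over expected reads (vertical axis) in 2 kb tiles by distance from the start tile along the direction of the gene, for the 46 ribosomal protein genes (left) and all 22365 protein-coding genes (right). Lines are means of the control libraries of each mark and bands their lowest to highest library (3 per mark; Input is 1 library); the members' H3K9me2 reaches -3.47 at the start, and their H3K27me3 trough of -2.15 lies 2 kb inside the gene.

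Gene by gene, H3K9me2 was lower than Input at nearly every member. The start tile minus Input had a median of -3.003 over the members (log2, range -4.24 to -0.67), against -1.55 over all protein-coding genes. In limma with Benjamini-Hochberg adjustment over 22052 genes, 42 of 46 members were called lower and none higher, where 44.9% of all genes were called lower; with a mean-variance trend in the fit it was also 42 (47.1% of all genes). At the 6857 genes with CpG-rich starts the median was -2.71, and 5479 were called lower. The 39 Hox genes had a median of -2.91, and 32 were called lower. All 3 control libraries lay below Input at 45 members (68.1% of all genes, 6632 of the 6857 with CpG-rich starts, 39 of 39 Hox genes). The exception, Rps2, had values of -0.38, -1.11 and 0.60 against an Input value of 0.37. Its outermost start lies in a different tile from the start of its longest coding transcript, in which H3K9me2 differed from Input by -3.20 ± 0.56 (SE, adjusted p = 0.00226 in limma).

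Rpl4, whose protein lines the peptide exit tunnel, was the lowest. Its H3K9me2 values were -3.84, -4.58 and -3.99 in the day 4 and the 2 day 8 controls, from 1, 0 and 1 reads, against 0.11 in Input from 20 reads. All the libraries of the mark were far below Input, and the difference of -4.24 ± 0.65 (SE) had an adjusted p of 0.00145 in limma. As a ratio of summed reads this was 0.0359 of Input (exact 95% interval 0.0041 to 0.148).
Rpl37 followed with -3.84, -4.58 and -3.99 against -0.13 in Input (difference -4.01). Rpl11, which together with Rpl5 binds the 5S rRNA and can restrain the p53 regulator MDM2, had -3.84, -3.43 and -4.14 against 0.03 (difference -3.84). Rpl19 had -3.84, -4.58 and -3.99 against -0.41 (difference -3.73). The least depleted after Rps2 were Rps3, a protein of the mRNA entry channel, at -0.51, -1.26 and -1.99 against 0.11, Rplp2 of the ribosomal stalk at -2.25, -2.43 and -2.40 against -0.76, and Rpl22 at -2.84, -2.85 and -1.99 against -0.63. Rps3 (difference -1.36, adjusted p = 0.0937), Rplp2 (-1.61, adjusted p = 0.139) and Rpl26 (-2.42, adjusted p = 0.0795) were, with Rps2, the 4 members that limma did not call. The limma error at a gene pools the spread of all 3 marks. At Rplp2 the SD of the controls was 0.096 for H3K9me2 but 1.40 for H3K9me3.

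H3K27me3 was lower than Input at most members, by less. The median difference was -1.33 (range -2.35 to 0.53), against 0.01 over all protein-coding genes, and all 3 control libraries lay below Input at 40 members (40.8% of all genes). limma called 8 of 46 members lower and none higher, where 5.31% of all genes were called lower. With a mean-variance trend in the fit, 3 members were called (4.13% of all genes), and leaving out the day 4 control, the day 8 replicate 1 control or the day 8 replicate 2 control left 4, 3 and 2 called. Averaging the start tile with its 2 neighbours brought the number to 30 members, and the share of all genes called lower to 20.9%.

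Rps9 was a called member with H3K27me3 values of -2.49, -2.76 and -2.44 from 4, 3 and 4 reads, against -0.31 in Input from 15 reads (difference -2.25 ± 0.66 SE, adjusted p = 0.0270 in limma). Rpl24 was the lowest by the mean, with -1.90, -2.34 and -3.44 against -0.21 (difference -2.35, adjusted p = 0.0326). Its outermost annotated start is in a different tile from its longest coding transcript, where the difference was -1.61 and not called (adjusted p = 0.261). Rps21 had -2.49, -1.02 and -2.86 against 0.18 and was not called in limma (difference -2.30, adjusted p = 0.0989). The error behind that p pools the marks. Among the controls at Rps21 the widest spread was that of H3K9me2 (SD 1.31), ahead of H3K27me3 (0.97) and H3K9me3 (0.82). Rps2 had -1.16, -1.76 and -2.44 against 0.37 (difference -2.16, adjusted p = 0.0383). The other called members were Rpl3, Rpl8, Rpl15, Rpl19 and Rplp1, with differences of -1.63 to -2.15.

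At the other end, Rpl26 was the member whose H3K27me3 was above Input in all 3 control libraries, at -0.68, -0.76 and -0.12 against -1.04. The difference of 0.53 was within the error (adjusted p = 0.737), and the ratio of summed reads was 1.47 (exact 95% interval 0.712 to 3.42). Rpl6 had -2.16, -1.54 and -2.44 against -1.89, where Input itself had only 5 reads. Rpl38, a large subunit protein known from mouse mutants with altered Hox mRNA translation, had -0.68, -1.02 and -0.54 against -0.51. Rps20 had -0.49, 0.05 and -1.44 against -0.31. These 4 starts straddled or came close to the Input level.

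H3K9me3 was also below Input, though no member passed the test. The median difference was -1.78 (range -3.16 to -0.49), against -0.89 over all protein-coding genes, and all 3 control libraries lay below Input at 43 members (66.5% of all genes). Genes with CpG-rich starts had a median of -1.34, and 5902 of 6857 lay below Input in all 3 controls. limma called 0 of 46 members, where 0% of all genes were called lower, and 26 members had an unadjusted p under 0.05 in that direction (24.6% of all genes). With a trend the fit also called 0 members (0.0453% of all genes), and 19 had an unadjusted p under 0.05 (23.3% of all genes). The mean of the start tile and its 2 neighbours gave 34 called members (36.3% of all genes). Rplp1 of the stalk was the lowest at -4.25, -2.20 and -4.24 against -0.41 in Input, from 0, 4 and 1 reads against 14 (difference -3.16, adjusted p = 0.109). Rpl23, Rpl13 and Rpl37 followed with differences of -2.49, -2.47 and -2.42.
The H3K9me3 values nearest to Input were those of Rpl15 at -0.93, -0.03 and -0.66 against -0.04, Rplp0 at -2.10, -1.61 and -0.92 against -1.04, Rpl28 at -1.78, -1.87 and -2.24 against -1.41, and Rpl6 at -2.52, -1.87 and -3.24 against -1.89. At Rpl15, which shares its tile with another protein-coding start, 39 reads had accumulated over the 3 controls.

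Rplp0, the stalk protein widely used as a reference transcript, and Rps6, the target of S6 kinase, show the marks side by side. At Rplp0 the differences from Input were -2.71 for H3K9me2 (adjusted p = 0.00371 in limma), -1.16 for H3K27me3 (adjusted p = 0.137) and -0.50 for H3K9me3 (adjusted p = 0.535). At Rps6 they were -2.76 (adjusted p = 0.0444), -1.90 (adjusted p = 0.190) and -1.85 (adjusted p = 0.249). At both genes H3K9me2 was the mark that passed. The call at Rps6 was lost with each library centred on its median (difference -2.70), after GC correction (-1.93), and without the day 4 control (-2.60) or the day 8 replicate 2 control (-2.53).

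**Figure D3:**
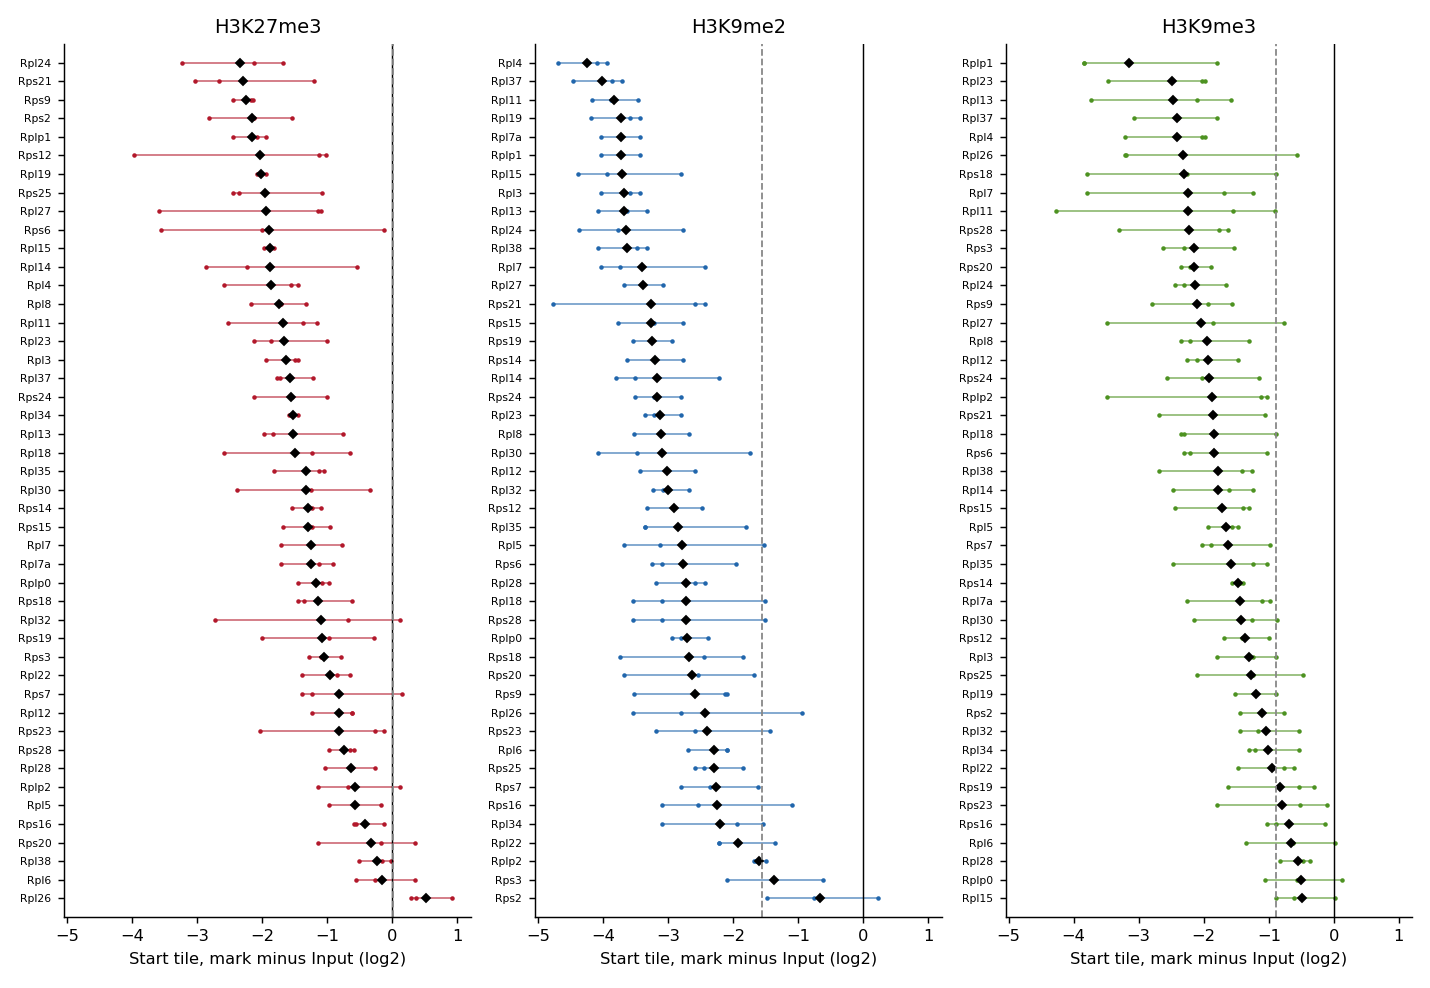
Start tile of each of the 46 members minus its Input value (log2, horizontal axis), sorted within each mark. Small points are the 3 control libraries, joined by a line from lowest to highest, diamonds their mean, the solid line is Input and the dashed line the median of all protein-coding genes; the H3K9me2 diamonds run from -4.24 to -0.67 and the H3K27me3 diamonds from -2.35 to 0.53.

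The differences from Input were also compared by subunit and by CpG content. The median H3K27me3 difference from Input was -1.49 for the 29 Rpl and Rplp genes and -1.29 for the 17 Rps genes, and the ranges overlapped. For H3K9me2 the medians were -3.12 and -2.67, and for H3K9me3 -1.78 and -1.71. Members with at least 80 CpG sites in the tile had a median H3K9me2 difference of -3.01 and the 15 with fewer had -2.71. Over the 46 members, which share the same libraries and 1 Input, Pearson's r between CpG sites and the difference was -0.33 for H3K9me2, 0.13 for H3K27me3 and -0.04 for H3K9me3. The 9 members that share their tile with another start had medians of -1.25, -3.01 and -1.94 for H3K27me3, H3K9me2 and H3K9me3, against -1.33, -2.996 and -1.78 for the other 37.

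The start tile was lower than its own flanks for every mark, but seldom by enough to pass a test for 1 gene. The mean of the control libraries lay below the flanks at 39 members for H3K27me3 (41.1% of all genes), 42 for H3K9me2 (70.8%) and 41 for H3K9me3 (69.5%), and at 28 in Input (53.4%). After subtracting the same contrast in Input, the median dip was -0.85, -1.15 and -0.61, against 0.22, -0.63 and -0.29 over all protein-coding genes. At genes with CpG-rich starts it was 0.35, -1.41 and -0.48, so the H3K9me2 dip was deeper there than at the members. limma called 1 member lower for H3K27me3 (0.236% of all genes), 2 for H3K9me2 (4.94%) and 0 for H3K9me3 (0%), where 3 members had an unadjusted p under 0.05 (5.30% of all genes). Of the 6857 genes with CpG-rich starts it called 18, 784 and 0 lower for the marks in the same order.

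The H3K27me3 case was Rpl19, whose flanks averaged 0.40 while its start tile held -2.49, -2.34 and -2.44. The dip relative to Input was -3.04 ± 0.48 (SE), with an adjusted p of 0.0117 in limma, and it also passed with a trend in the fit (adjusted p = 0.0156). It was not called without the day 8 replicate 1 control. For H3K9me2 the cases were Rpl37 (dip -2.45, adjusted p = 0.0291) and Rpl15 (dip -2.53, adjusted p = 0.0463); neither passed with a trend, and 1 passed without the day 8 replicate 1 control or without the day 8 replicate 2 control. Among members whose start was not lower, the H3K9me2 start tile of Rps2 lay 2.41 above its flanks. That tile holds its outermost start, not the start of its longest coding transcript, where H3K9me2 was below Input.

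Loss of DNMT1 was followed for each mark in 1 pair of libraries at day 4 and 2 pairs at day 8. Over all tiles with a read, limma called 0 of 46 members changed at day 8 for any of the marks, where 0%, 0% and 0% of tiles were called. An unadjusted p under 0.05 was reached by 12 members with lower H3K27me3 (20.3% of the start tiles of all protein-coding genes) and 0 with higher (2.14%). It was reached by 12 members with higher H3K9me2 (14.3%) and 0 with lower (0.618%), and without the day 8 replicate 2 KO library by 7 with higher (6.69%) and 2 with lower (6.48%). For H3K9me3 it was reached by 1 member with lower (4.50%) and 3 with higher values (3.60%). limma-voom on the reads recovered from the table also called 0 members for each mark. With 2 against 2 libraries an exact permutation test cannot give a two-sided p below 0.3333, so the values per pair are given instead.

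H3K27me3 at the 46 starts was lower in KO than in control in both day 8 pairs. Summed reads per library read were 0.726 of control in the first pair (231 against 328 reads, exact 95% interval 0.611 to 0.861) and 0.637 in the second (224 against 299, 0.533 to 0.760). At day 4 the ratio was 0.934 (246 against 312, 0.787 to 1.11), an interval that includes 1. The starts of all protein-coding genes had ratios of 0.90, 0.736 and 0.713 in the same pairs, and CpG-rich starts 0.787, 0.519 and 0.432. The intervals of the members at day 8 thus lay above the CpG-rich starts in both pairs and took in the ratio of all starts. The members' flanks had 0.926, 0.845 and 0.775.

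Single members showed this unevenly. The median difference between KO and control was -0.49 and -0.66 in the 2 day 8 pairs (log2), against -0.35 and -0.43 over all genes, and -0.11 at day 4. Values were lower in KO in all 3 pairs at 14 members (35.5% of all genes) and higher in all 3 at 0 members (10.0%). At least 2-fold lower values in both day 8 pairs were found at 5 members, Rpl5, Rpl7, Rplp2, Rps15 and Rps21 (12.3% of all genes), and 2-fold higher values at 0 (0.774%). The shares of lower members, 14 and 5 of 46, did not exceed those of all genes.

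Rpl30 had the largest mean difference at day 8: control values of -1.76 and -0.86 and KO values of -2.30 and -4.68, the last from 1 read (mean difference -2.18, adjusted p = 0.617). Rps21 had control values of -1.02 and -2.86 and KO values of -3.30 and -4.68 (mean difference -2.05, adjusted p = 0.615). Rps16 had -1.02 and -1.44 against -1.72 and -4.68 (mean difference -1.96, adjusted p = 0.653). In these 3 genes both KO values lay below both controls. In the other direction Rps25 had control values of -2.76 and -2.86 and KO values of -1.72 and -2.35 (mean difference 0.77, adjusted p = 0.685). Rpl27 and Rps3 followed with mean differences of 0.41 and 0.38, and in both genes KO and control overlapped. All of these come from 1 to 16 reads per library and pass no threshold.
Averaging the 11 tiles within 10 kb reduced the counting error. On those means limma called 6 of 46 members lower for H3K27me3 (5.03% of all genes): Rpl7, Rpl15, Rpl19, Rpl30, Rpl35 and Rplp2, by -0.69 to -1.11. A share of 6 in 46 from a region that also holds neighbouring genes is a value for those regions, not for the starts.

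**Figure D4:**
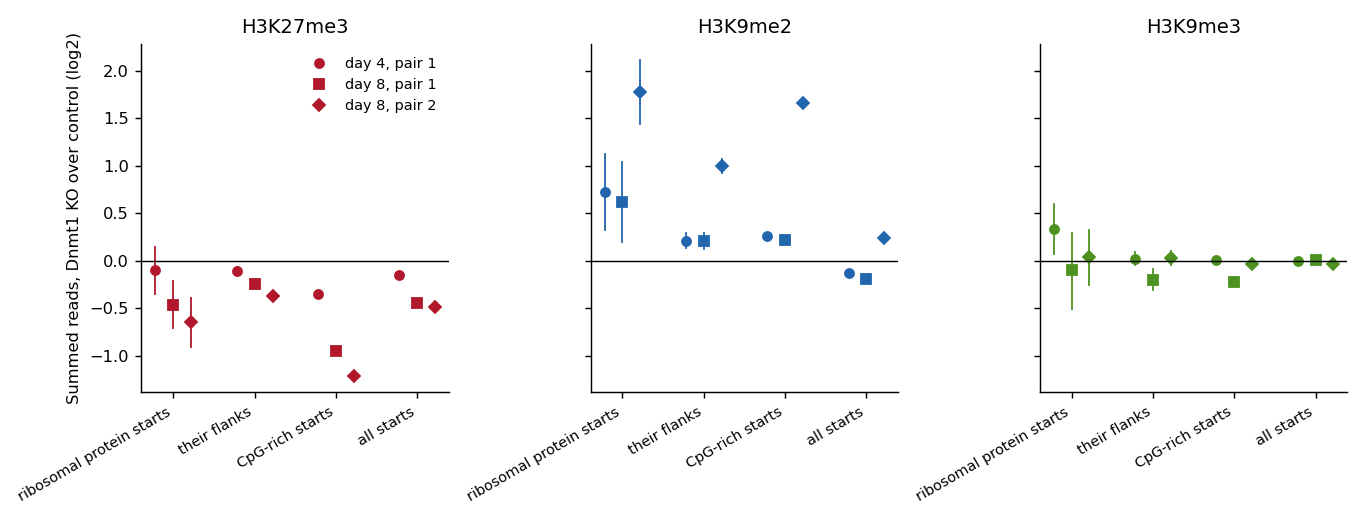
Summed reads per library read, Dnmt1 KO over control (log2, vertical axis), at the 46 starts, their flanks, CpG-rich starts and the starts of all protein-coding genes, for each pair of libraries (circle day 4, square and diamond the 2 day 8 pairs) with exact 95% binomial intervals. H3K27me3 at the members is -0.46 and -0.65 at day 8, H3K9me2 is 0.62 and 1.77, and H3K9me3 -0.099 and 0.035.

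H3K9me2 at the starts was higher in KO in every pair, by different sizes. The ratio was 1.65 at day 4 (173 against 77 reads, exact 95% interval 1.25 to 2.19), 1.54 in the first day 8 pair (113 against 86, 1.15 to 2.06) and 3.42 in the second (436 against 91, 2.72 to 4.34). The second pair contains the library that stood apart, and CpG-rich starts gave 1.20, 1.16 and 3.15 in the same order; the part of that library in the result was not tested. In KO the members still held 26.9%, 18.5% and 59.5% of the Input level. Relative to CpG-rich starts, the lower limits of the members' intervals were above 1.20 at day 4 and below 1.16 and 3.15 at day 8.

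The median difference between KO and control was 0.55 at day 4, 0.23 in the first day 8 pair and 1.95 in the second, against 0.14, 0.23 and 0.84 over all genes. At the 6857 genes with CpG-rich starts it was 0.14, 0.23 and 1.84. Equal read counts in KO and control give 0.23 in the first day 8 pair, where the KO library is the smaller. The median day 8 difference with all 4 libraries was 1.14, against 0.53 over all genes. Without the day 8 replicate 2 KO library it was 0.14 (0.079 over all genes), and without the replicate 1 KO library it was 2.17 (1.08). Values were higher in all 3 pairs at 17 members (27.5% of all genes) and lower in all 3 at 0 (4.83%). In the first day 8 pair Rpl7a, Rpl8, Rpl23, Rplp0 and Rps25, counted among the 17, had equal reads in KO and control. Rpl13, also counted, had 0 reads in both, and Rpl27 0 in KO and 1 in control, so these directions rest on library size. Of the 6857 genes with CpG-rich starts, 2319 were higher in all 3 pairs and 53 lower. Leaving out the second day 8 pair, a choice made after seeing the data, 18 members were higher in both remaining pairs (33.8% of all genes). At least 2-fold higher values in both day 8 pairs were found at 11 members (10.9% of all genes) and 2-fold lower values at 0 (0.188%). Among the genes with CpG-rich starts these numbers were 1283 and 1 of 6857. In the first day 8 pair alone 14 members were at least 2-fold higher, as were 4018 of the 22365 protein-coding genes.

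The largest H3K9me2 differences at day 8 were at Rplp1, Rpl19 and Rpl28. Rplp1 had control values of -4.43 and -4.14, from 1 and 0 reads, and KO values of -1.62 and -1.01, from 6 and 11 reads (mean difference 2.97, adjusted p = 0.846). Rpl19 had -4.58 and -3.99 against -2.21 and -0.77 (mean difference 2.80, adjusted p = 0.846). Rpl28 had -4.58 and -3.99 against -1.88 and -1.15 (mean difference 2.77, adjusted p = 0.846). In these genes both KO libraries lay above both controls, but at day 4 the KO value of Rplp1 and of Rpl28 was -4.28, below the control value of -3.84, with 1 read in each library.
The smallest differences were at Rps20 (mean difference -0.26), Rps2 (0.14) and Rplp2 (0.24). Rps2, the member richest in H3K9me2 in the tile of its outermost start, had control values of -1.11 and 0.60 there. Its KO values of -0.50 and 0.28 overlapped these.

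H3K9me3 at the starts showed no direction at day 8. The ratio of KO to control was 0.934 in the first pair (68 against 241 reads, exact 95% interval 0.703 to 1.23) and 1.02 in the second (209 against 203, 0.840 to 1.25). At day 4 it was 1.26 (317 against 198, 1.05 to 1.51), with all starts at 1.00. The median difference between KO and control was -0.14 and -0.01 at day 8 and 0.13 at day 4, against -0.08, -0.01 and 0.00 over all genes. Values were lower in all 3 pairs at 3 members (15.1% of all genes) and higher in all 3 at 7 (11.8%). At least 2-fold higher values in both day 8 pairs were found at 1 member, Rpl27 (1.91% of all genes), and 2-fold lower values at 0 (3.34%).

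The members at the ends of the H3K9me3 range differed from control in opposite directions. Rpl35 had control values of -1.87 and -1.66 and KO values of -2.47 and -4.40, the last at 0 reads (mean difference -1.67, adjusted p = 0.773). Rps12 had -2.20 and -1.92 against -2.47 and -4.25 (mean difference -1.30), and Rps19 -1.20 and -1.43 against -2.62 and -1.93 (mean difference -0.96). Rps18 had -4.20 and -2.66 against -0.89 and -1.93 (mean difference 2.02, adjusted p = 0.773), Rpl27 -2.61 and -4.24 against -0.47 and -2.66 (mean difference 1.86) and Rpl24 -1.87 and -2.66 against -0.47 and -1.66 (mean difference 1.20). In each of these genes except Rpl27 both KO values lay on 1 side of both control values. Both directions occur at similar size, and the replicate 1 KO library had a median of 1 read in a member's start tile. In that library 0 reads stood at -2.62, against -4.35, -4.40 and -4.39 in the other day 8 H3K9me3 libraries. It had 0 reads at 13 members, and 4 and 3 reads at Rpl27 and Rps18. Without that library Rpl35 was called lower (adjusted p = 0.00829 in limma; 1.52% of the start tiles of all genes were), and without the replicate 2 KO library Rpl27 and Rps18 were called higher (adjusted p = 0.00192 and 0.00526; 2.43% of start tiles were), so no call was shared between the KO libraries.

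**Figure D5:**
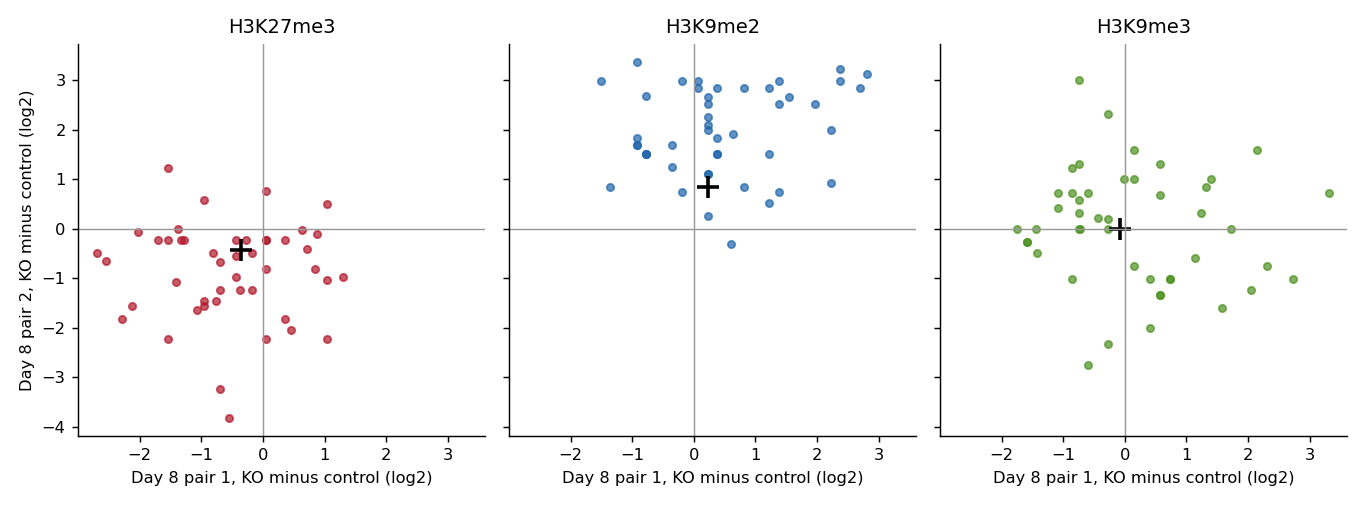
Start tile of each member, KO minus control (log2), in the first day 8 pair (horizontal axis) and in the second (vertical axis); points are the 46 members and the cross is the median of all protein-coding genes. For H3K27me3, 30 and 42 of the members lie below 0 in the first and the second pair; for H3K9me2, 14 and 1 do; for H3K9me3, 24 and 24 do.

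The related gene lists were compared in the same way. At the 35 other ribosomal protein genes the day 8 ratios were 0.697 and 0.545 (H3K27me3), 1.09 and 3.14 (H3K9me2), and 1.04 and 0.989 (H3K9me3). At the 26 translation factor genes they were 0.688 and 0.597, 1.19 and 4.37, and 0.844 and 0.886. The limma comparison with Input called 4 of 35 and 5 of 26 of these genes lower in H3K27me3 and 1 and 0 higher. It called 30 and 20 lower in H3K9me2 and 0 and 0 in H3K9me3.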

How the data were processed

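ChIP-seq of 3 histone marks and Input was analysed in 19 libraries. Per the study's methods, the authors trimmed reads with Trim Galore, mapped them with Bowtie2 (version 2.2.9 in the submitters' processing notes) to NCBIM37 and discarded mapping qualities under 20. The authors deposited log2 observed over expected reads for 1327469 tiles of 2 kb, although the methods give tiles of 1 kb. Input was not subtracted, and duplicate removal is not given in the sources used here. Reads that match processed pseudogenes of ribosomal protein genes equally well are lost by the quality limit, in Input too. Low values were whole multiples of 1 read in every library, with 0 written as 0.9 read, so reads were recovered.

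Genes were taken from GENCODE vM1, and all 22 chromosome lengths equalled those of NCBIM37. Of 36 other ribosomal protein genes listed, 35 were found. limma 3.58.1 (R 4.3.3) compared start tiles with Input over the 10 control libraries. The error of that fit pools the spread of the 3 marks, which assumes that the marks and the 1 Input library vary alike. At day 8 limma compared 2 KO with 2 control libraries without a block. Adjusted p-values are Benjamini-Hochberg with a threshold of 0.05. Tested on simulated reads, the fits recovered the fold changes; the day 8 fit called none of the changed genes, so its counts of 0 carry no information on whether marks changed. The comparison with Input without a trend recovered few changed genes and made more false calls than its threshold; with a trend it recovered more and a smaller share was false, though still above the threshold for every mark, so counts with a trend stand beside it. Ratios of summed reads have exact binomial 95% intervals (scipy 1.17.1). The members and gene lists were chosen with earlier results of these data known. Named genes were, per mark, the 4 lowest and 4 highest against Input, the 3 largest day 8 changes each way, members passing a threshold where at most 5 did, and Rplp0 and Rps6. The alternatives covered scaling, GC content, filters, the start used, the variance trend, the features fitted and each library left out.

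The labels give the H3K27me3 antibody catalogue number with a different last digit in some libraries, and 1 extraction text naming an H3K9me2 antibody for all libraries.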

Additional observations from a re-analysis of the deposited data

Results flagged for a closer look

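Among the members named for their day 8 changes, 11 differences pointed 1 way in both day 8 pairs and the opposite way in the single day 4 pair. These are differences of direction only and were not tested. The day 4 changes (KO minus control, log2) for H3K27me3 were 0.66 at Rpl30, 0.83 at Rps21 and 0.24 at Rps16, which were lower in KO at day 8, and -0.34 at Rpl27 and -2.76 at Rps25, which were higher. For H3K9me2 they were -0.031 at Rplp2, -0.45 at Rpl28 and -0.45 at Rplp1, all higher at day 8. For H3K9me3 they were 0.66 at Rpl35 and 1.07 at Rps19, lower at day 8, and -0.12 at Rpl27, higher at day 8. The genes were named for large day 8 values, and most of these tiles hold fewer than 10 reads in a library. In the first day 8 pair Rplp2 had 4 H3K9me2 reads, and Rpl27 1 H3K27me3 read, in both KO and control. Their direction in that pair rests on library size.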

How the results depend on the processing

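Of 216 values that answer a comparison under another setting, 174 stayed within 1.5 times the count, 1 SD of the median or the interval of the ratio. For the H3K27me3 comparison with Input, 8 called members became 3 with a variance trend, 1 with each library centred on its median (median -0.94), 19 after GC correction (median -1.92) and 30 with 3 tiles averaged; centring raised the median of all genes from 0.03 to 0.42. For H3K9me2 against Input, GC correction left 27 calls (median -2.46), and 3 tiles averaged gave a median of -2.62. For H3K9me3 against Input, the median was -1.53 centred, -1.33 after GC correction and -1.47 with 3 tiles averaged, where 34 members were called. Against the flanks, GC correction moved the medians to -1.06 for H3K27me3 and -0.71 for H3K9me2, the H3K9me2 calls became 0 with a trend and 0 after GC correction, and flanks without the next tiles gave a median of -1.28. The cause was not tested.

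At day 8, means within 10 kb called 6 members for H3K27me3 (median -0.36), and the H3K9me3 median was 0.066 centred and -0.23 after GC correction. Relative to all protein-coding starts, a scaling chosen after seeing the data, the summed H3K27me3 change was -0.020 and -0.16 (log2) in the day 8 pairs. Over all tiles the day 8 fit called 2284 lower and 783 higher for H3K27me3 with a trend, 0 and 0 for H3K9me2, and 102 and 5 for H3K9me3, none of them a member's start.

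Leaving out 1 control library at a time gave 2 to 4 called members for H3K27me3 against Input and 0 to 1 against the flanks (median -0.89 to -0.70). For H3K9me2 it gave medians against Input of -3.12 to -2.95 and 1 to 2 calls against the flanks. For H3K9me3 it gave medians of -1.71 to -1.50 against Input and -0.59 to -0.42 against the flanks. At day 8, leaving out 1 library gave medians of -0.94 to -0.47 for H3K27me3, 0.14 to 2.17 for H3K9me2 and -0.32 to 0.094 for H3K9me3, the last with 0 to 2 calls; the single library left in an arm is assumed to vary like the others.

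Of the named members, the difference from Input changed sign for H3K27me3 at Rpl6 (0.23), Rpl38 (0.15) and Rps20 (0.064) when centred, at Rpl26 after GC correction (-0.020), and at Rpl26 (-0.033) and Rpl38 (0.018) with 3 tiles averaged. With 1 control left out it ranged from -0.41 to 0.043 at Rpl6 and from -0.66 to 0.089 at Rps20, both highest without the day 8 replicate 2 control. The day 8 change reversed with means within 10 kb at Rpl27 (-0.11), Rps3 (-0.36) and Rps25 (-0.31) for H3K27me3, Rps20 (0.41) for H3K9me2 and Rps18 (-0.016) for H3K9me3. It reversed for H3K9me2 at Rplp2 (-0.19) and Rps2 (-0.11) after GC correction and at Rps20 in limma-voom (0.031). With 1 library left out it ranged from -0.013 to 0.78 at Rps3 and -1.20 to 2.01 at Rpl27 for H3K27me3, and from -1.79 to 1.27 at Rps20 and -0.71 to 1.00 at Rps2 for H3K9me2.

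Same-numbered day 8 libraries deviated together only weakly over start tiles (r = 0.14, 0.054 and 0.045 across 22365 genes for H3K27me3, H3K9me2 and H3K9me3), and with 2 pairs the number does not count as a pairing. With the replicate number as a block, 0 members were called for each mark, as without it. Depth limits every value of a single start: 5 to 24 Input reads and often under 5 ChIP reads.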
